A study of Mus musculus with 26 samples.

Results

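Mitosis and spindle genes encode the machinery that condenses the chromosomes, builds the spindle, attaches each chromosome to it, checks the attachment and finally splits the cell. A set of 35 such genes was described in 8 populations of mouse blood cell progenitors. The genes were chosen by name, as a list of mitotic regulators and structural proteins. This choice of genes used no measured level, although earlier results of these data were known when the list was made. A gene was measured where the array holds a probe set assigned to that gene alone, and of several such probe sets the brightest by its mean across the series stood for the gene. This gave 34 of the 35 genes among 18194 genes in all, and Ccnb1, a mitotic cyclin, was not analysed here. Of the 34, 24 had over 1 probe set.

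Transcripts of these genes are low in the first gap phase of the cell cycle and rise towards mitosis, and many of the proteins are destroyed as the cell leaves mitosis. The level in a bulk RNA sample therefore depends on how many of its cells are in the later part of the cycle and on the amount of RNA in each. In bulk samples fewer dividing cells and less RNA per cell cannot be told apart. In blood formation, multipotent progenitors are the least committed cells studied here, and early thymocytes pass through stages named DN1, DN2 and DN3, the last being the stage at which the T cell receptor beta gene is rearranged.

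RNA was measured on 26 Affymetrix arrays, 1 for each sample, to compare progenitor populations along the myeloid and lymphoid branches. All mice were C57/Bl6 males of 2 months, per the labels, with no genetic change or treatment named. Bone marrow gave the multipotent progenitors MPPFL- (n = 5) and MPPFL+ (n = 3), the common myeloid progenitors CMP, the granulocyte-macrophage progenitors GMP and the common lymphoid progenitors CLP (n = 3 each). Thymocytes gave DN1, DN2 and DN3 (n = 3 each). The full names are the usual ones of the field, FL is read here as the receptor Flt3, and a second label of the CLP arrays reads ALP. No label says that the replicates are different animals, so p-values here measure the spread between these samples and no more.

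Levels are on the log2 scale as deposited, where a difference of 1 is a doubling. The lowest value of the table was 2.17 and recurred on every array, the highest was 17.1. None of the 884 values of the 34 genes was at the lowest value (0 of 884). All 34 genes had a mean above 5.31, the median over genes. The population labels were set against 10 markers. Ptcra, the alpha chain of the pre-T cell receptor, was at 12.81 ± 0.47 in DN3 (SD, n = 3) and at no more than 3.44 on any other array. Il2ra, the CD25 chain that separates DN1 from later stages, had a DN1 mean of 7.37 ± 1.04, a DN2 mean of 13.14 ± 0.44 and a DN3 mean of 13.16 ± 0.35 (SD, n = 3), and stood at the lowest value on all MPPFL-, MPPFL+, GMP and CLP arrays. Flt3 ran from 12.99 to 13.53 on the MPPFL+ arrays and from 10.69 to 11.64 on those of MPPFL-. Among the marrow populations, Gata1 was highest in CMP, at 10.98 ± 0.12, Mpo in GMP, at 16.11 ± 0.03, and Il7r in CLP, at 13.23 ± 0.06 (SD, n = 3 each). Kit was at 9.72 or more on all arrays, Cd34 at 10.90 or more on all but the DN3 arrays, where it was at no more than 2.69, and Notch1 was highest in DN3. Dntt was at no more than 2.22 on the GMP arrays, 7.50 to 8.36 in MPPFL- and 10.47 or more on all others. Each of the 26 arrays correlated best with an array of its own population. Some arrays went against the male label. Xist, which female cells transcribe from their inactive X chromosome, read 12.21 and 13.59 on replicates 1 and 3 of DN1 and 12.99 and 6.30 on replicates 2 and 3 of DN2, and below 5 elsewhere. Eif2s3y, a gene of the Y chromosome, read 12.76 and 2.62 on the same DN1 arrays and 2.17 and 13.34 on the same DN2 arrays. Replicate 1 of DN1 and replicate 3 of DN2 thus carried both signals. Results on DN1 or DN2 are therefore also given without these 4 arrays. The poly-A spike-in controls, added to RNA before labelling, had a mean between 9.87 and 11.68 in DN3, 8.59 and 9.34 in CMP, 7.22 and 7.50 in GMP, 3.63 and 5.09 in MPPFL-, MPPFL+ and CLP, and 2.46 and 2.56 in DN1 and DN2. Clustering on these controls was cut into 6 clusters of arrays, a number that was set and not found. MPPFL-, MPPFL+ and CLP shared 1 of them, DN1 and DN2 shared another, and GMP had its own. CMP replicate 1 stood alone, CMP replicates 2 and 3 grouped with DN3 replicate 3, and the other two DN3 arrays formed the last.

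Many genes of this class are known to share promoter letters, and these were searched for in the 250 bases before to 50 bases after the annotated start of each gene, on both strands. RefSeq promoters of the build GRCm38.p6 were at hand for 28 of the 34 measured genes, and Ccna2, Aurkb, Incenp, Tpx2, Kif20a and Smc4 had none there. The cell cycle homology region (CHR), here TTTGAA or TTCGAA, was found in 22 of the 28 (78.6%) and in 21.7% of the promoters of 27025 genes. The CCAAT box, here the letters CCAAT, was found in 21 of the 28 (75.0%) and in 41.1% of all. Both were found in 19 of the 28 (67.9%) and in 8.61% of all, and at least 2 CCAAT boxes in 12 (42.9%) and in 13.3% of all. E2F letters, here TTTCCCGC, TTTGGCGC, TTTGCCGC or TTTCGCGC, were found in 2 of the 28 (7.14%) and in 2.61% of all. A narrower window, chosen after these shares were known, ran from 60 bases before to 50 after the start and held the CHR in 21 of the 28 (75.0%) and in 6.79% of all. No test was made on these shares, and a match is a run of letters, not a shown binding site.

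The promoters of 5 genes, those with 1 annotated start and both CHR and CCAAT letters within the 110 bases before it, are shown to let these shared letters be seen in place. Each is written 5′ to 3′ on the strand of the gene and ends at the base before the start. Capitals mark the CHR (TTTGAA, or TTCAAA where it lies on the other strand) and the CCAAT box (CCAAT, or ATTGG on the other strand).
Cdk1, chr10:69352913-69353022, minus strand: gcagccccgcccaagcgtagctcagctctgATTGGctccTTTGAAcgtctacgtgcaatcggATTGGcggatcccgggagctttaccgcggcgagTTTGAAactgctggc
Cdc20, chr4:118437344-118437453, minus strand: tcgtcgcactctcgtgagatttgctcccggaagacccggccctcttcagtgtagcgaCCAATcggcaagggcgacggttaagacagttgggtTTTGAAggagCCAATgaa
Espl1, chr15:102296183-102296292, plus strand: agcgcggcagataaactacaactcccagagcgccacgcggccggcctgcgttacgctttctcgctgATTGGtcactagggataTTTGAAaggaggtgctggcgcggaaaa
Kif11, chr19:37376272-37376381, plus strand: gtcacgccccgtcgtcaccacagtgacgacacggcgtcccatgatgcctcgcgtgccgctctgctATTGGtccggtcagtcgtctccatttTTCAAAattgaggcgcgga
Top2a, chr11:99024190-99024299, minus strand: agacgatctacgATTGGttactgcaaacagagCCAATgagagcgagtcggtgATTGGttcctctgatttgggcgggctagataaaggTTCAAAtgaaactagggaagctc
The CHR nearest to the start ended between 9 bases (Cdk1) and 21 bases (Espl1) before it. Top2a held 3 CCAAT boxes in this stretch, Cdk1 and Cdc20 held 2 each, and Espl1 and Kif11 1 each. In the comparison of DN3 with DN2 described next, Cdk1, Kif11, Espl1 and Top2a fell by 2.87 to 4.26 on the log2 scale and Cdc20 fell by 0.83.

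All 34 genes differed among the 8 populations (moderated F test of limma, adjusted p under 0.05 in 34 of 34), as did 58.1% of all 18194 genes. The mean over populations spanned 1.51 in Smc4, 6.44 in Plk1 and a median of 4.28 over the 34 genes, against a median of 1.71 over the genes with a mean above the median level. DN3 was the lowest population in 32 of the 34 genes. The exceptions were Smc2, lowest in DN1, and Smc4, lowest in CMP. Of the 16931 genes whose population means differed, DN3 was lowest in 14.5%, and of the genes with a mean above the median level in 20.1%. No such share over all genes was taken for the counts that follow. CLP was the highest population for 22 genes, GMP for 6 and DN2 for 6. Leaving DN3 aside, the lowest population was MPPFL- for 17 genes, DN1 for 11, CMP for 5 and GMP for 1. The span of the means was then 0.92 in Cdk1, 4.05 in Plk1 and 1.78 as a median.

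**Figure D1:**
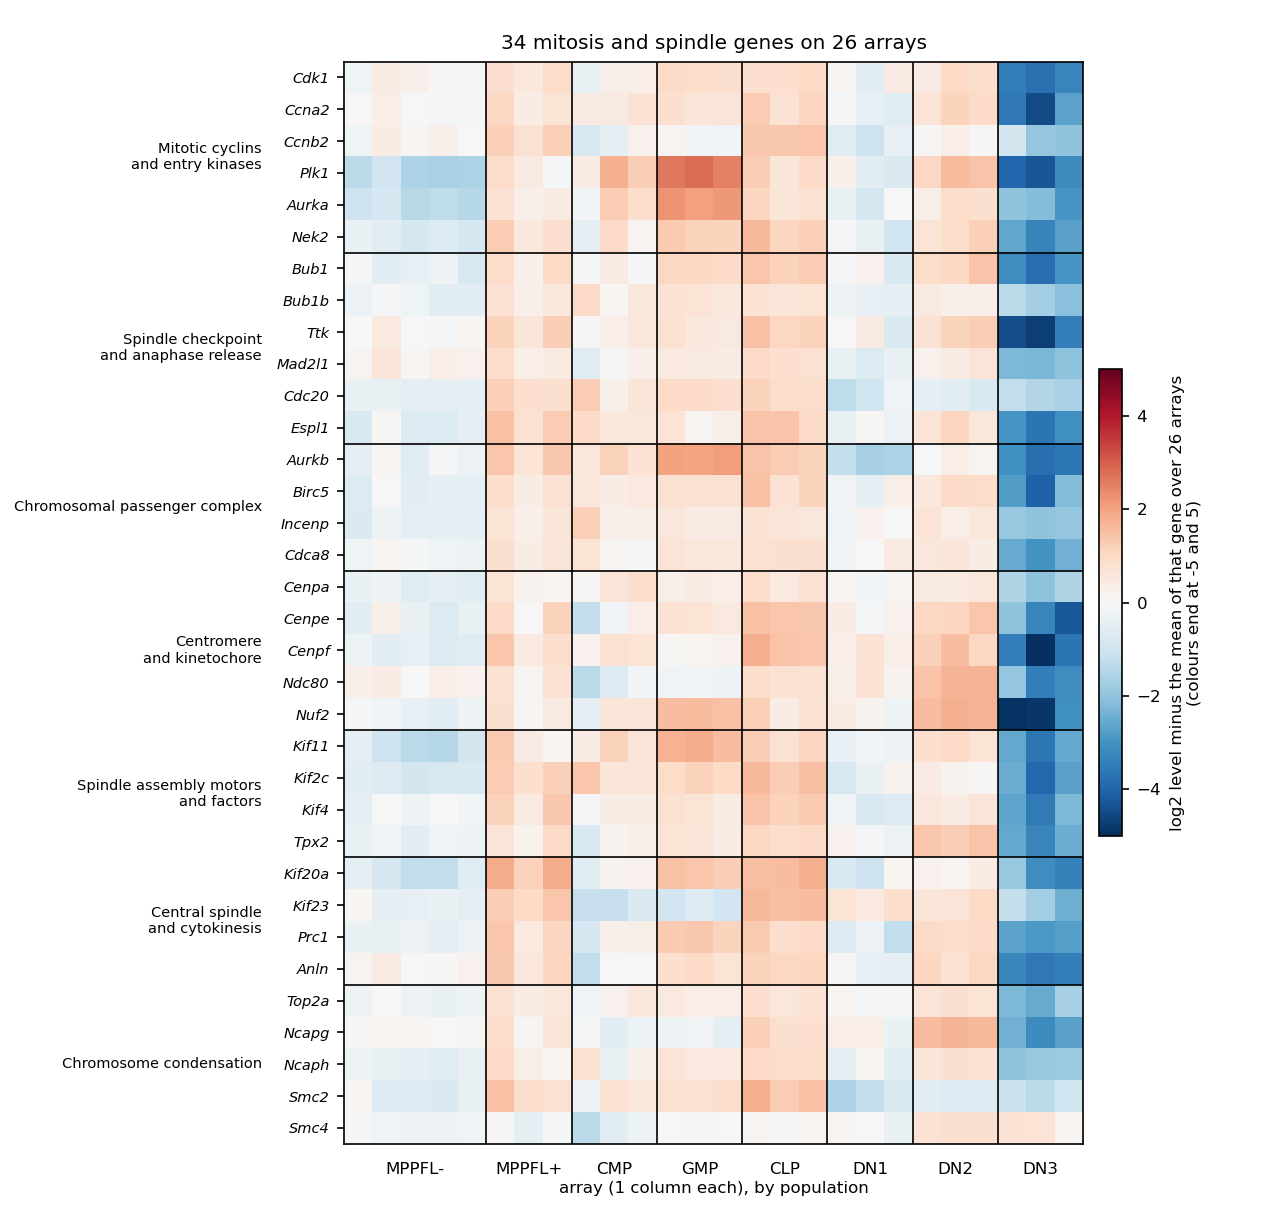
Log2 level of each of the 34 genes (rows, grouped by role) on each of the 26 arrays (columns, grouped by population), as the difference from that gene's mean over all arrays, with blue below and red above it and colours ending at -5 and 5. The DN3 columns are blue in all rows but Smc4, and Plk1, Aurka and Aurkb are darkest red in GMP.

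For each array, the median over the 34 genes of the difference from the gene's own mean summarises the set. That mean is taken here over the 8 populations, each weighted equally. The DN3 arrays were at -2.54, -3.32 and -2.69 (mean -2.85 ± 0.41, SD, n = 3). The MPPFL- arrays ran from -0.48 over a median of -0.40 to -0.18 and the DN1 arrays were at -0.15, -0.27 and -0.32. These 3 populations held all the arrays below 0 except CMP replicate 1, at -0.12. The other two CMP arrays were at 0.26 and 0.36, so that CMP lay on both sides of 0. MPPFL+ was at 0.94, 0.36 and 0.77, GMP at 0.73, 0.66 and 0.53, DN2 at 0.59, 0.81 and 0.74, and CLP at 1.20, 0.87 and 0.95. Every one of the 34 genes was above its own mean on all 3 CLP arrays, whereas 1 of 34 was on each DN3 array. The same median over 33 DNA replication genes, which act in the preceding phase of the cycle, was -0.81 ± 0.10 in DN3 and 0.55 ± 0.13 in DN2 (SD, n = 3).

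The step from DN2 to DN3, the last thymocyte step measured, held the largest differences. Of the 34 genes 32 fell and 0 rose in DN3 (limma, Benjamini-Hochberg adjusted p under 0.05, two-sided), while 14.4% of all genes fell and 16.7% rose. The genes that fell did so by 1.78-fold to 62.2-fold, with a median of 13.2-fold. The median log2 difference of the 34 was -3.67, and it was 0.05 over genes with a mean above the median level. In all 34 genes every DN3 array was below every DN2 array, which held for 17.4% of all genes. For 30 of the 34, every DN3 array was below all 23 other arrays of the series, which held for 5.06% of all genes. The gap was smallest in Kif23, 0.02, and largest in Cenpf, 2.74, with a median of 1.49. Ccnb2, Cdc20, Smc2 and Smc4 were the exceptions.

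Among the mitotic cyclins and entry kinases, all 6 measured genes fell in DN3. Cdk1, the kinase whose activity starts mitosis, was at 11.67, 12.27 and 12.14 on the DN2 arrays and at 7.81, 7.52 and 7.97 on the DN3 arrays. This was a fall of 19.1-fold (log2 difference -4.26, SE 0.23, adjusted p = 3.25e-11). Its partner cyclins differed from each other. Ccna2 was at 12.03, 12.50 and 12.35 in DN2 and at 7.80, 6.90 and 8.70 in DN3, a fall of 22.5-fold. Ccnb2 was at 11.82, 12.10 and 11.83 in DN2 and at 10.84, 9.83 and 9.76 in DN3, a fall of 3.42-fold (SE 0.26 on the log2 scale, adjusted p = 2.29e-05). DN3 replicate 1, at 10.84, overlapped the DN1 arrays for Ccnb2, the lowest of which was at 10.74.

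The kinases of the same group covered a wide range as well. Plk1, the polo-like kinase of centrosome maturation and spindle assembly, was at 9.82, 10.37 and 10.19 in DN2 and at 4.83, 4.50 and 5.66 in DN3, a fall of 35.0-fold. Aurka, the kinase of the spindle poles, was at 9.40, 10.00 and 9.90 in DN2 and at 7.06, 6.92 and 6.12 in DN3, a fall of 8.36-fold. Nek2, a kinase that separates centrosomes, fell by 13.9-fold. Groups did not overlap in any of the 3 kinases.

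Spindle checkpoint and anaphase release genes also fell in 6 of 6 cases. Ttk, the kinase that switches the checkpoint on, was at 9.98, 10.39 and 10.49 in DN2 and at 4.84, 4.55 and 5.82 in DN3, a fall of 37.1-fold (SE 0.29 on the log2 scale, adjusted p = 5.23e-11). Bub1 and Bub1b, checkpoint proteins of the kinetochore, fell by 21.1-fold and 4.06-fold. Mad2l1, the protein that holds the anaphase-promoting complex in check, fell by 6.06-fold. Espl1, separase, which cuts cohesin to let sister chromatids part, was at 10.08, 10.51 and 10.04 in DN2 and at 6.51, 5.79 and 6.40 in DN3, a fall of 15.7-fold. Cdc20, the activator of the anaphase-promoting complex, was at 12.70, 12.68 and 12.43 in DN2 and at 11.99, 11.74 and 11.58 in DN3. This was the smallest fall among those that passed, with a log2 difference of -0.83 (SE 0.23, adjusted p = 0.0084).

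The chromosomal passenger complex, which corrects wrong attachments and later directs cleavage, fell in all 4 parts. Its kinase Aurkb was at 10.53, 10.88 and 10.70 in DN2 and at 7.49, 6.80 and 6.96 in DN3, a fall of 12.3-fold. Birc5, survivin, fell by 14.1-fold, Cdca8, borealin, by 8.86-fold and the scaffold Incenp by 5.51-fold. Kinetochore genes fell in 5 of 5 cases and held the largest differences of the set. Nuf2, a rod of the complex that grips microtubule ends, was at 11.61, 11.87 and 11.77 in DN2 and at 5.14, 5.21 and 7.03 in DN3. DN3 replicate 3 was thus the highest of the 3, still below every other population. Nuf2 fell by 62.2-fold (log2 difference -5.96, SE 0.38, adjusted p = 3.68e-10). Its partner Ndc80 fell by 21.8-fold, Cenpf, a large kinetochore protein, by 38.6-fold, and Cenpe, the kinesin that carries chromosomes to the spindle equator, by 20.5-fold. Cenpa, the histone that marks centromeres, fell by 4.47-fold, the smallest fall of this group.

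Spindle motors and factors fell in 4 of 4 cases, by 9.44-fold in Kif2c, which takes microtubule ends apart, by 10.1-fold in the chromosome-arm kinesin Kif4, by 13.3-fold in Kif11, which pushes spindle poles apart, and by 17.6-fold in Tpx2, which nucleates microtubules near chromosomes. Central spindle and cytokinesis genes fell in 4 of 4 cases. Anln, anillin of the contractile ring, was at 11.57, 11.22 and 11.52 in DN2 and at 7.24, 6.91 and 7.07 in DN3, a fall of 20.6-fold. Prc1, which bundles the microtubules of the central spindle, fell by 13.1-fold, Kif20a by 8.17-fold and Kif23, the kinesin of centralspindlin, by 5.79-fold.

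Chromosome condensation was the only role group with members that did not pass in DN3 against DN2. Ncapg, a subunit of condensin I, was at 11.09, 11.24 and 11.16 in DN2 and at 7.14, 6.39 and 6.84 in DN3, a fall of 20.7-fold. Ncaph, its kleisin subunit, fell by 6.24-fold and Top2a, the topoisomerase that untangles sister chromatids, by 7.31-fold. Smc2 and Smc4 form the ATPase pair of both condensins. Smc2 was at 12.20, 12.12 and 12.08 in DN2 and at 11.65, 11.42 and 11.76 in DN3, a difference of -0.52 (SE 0.27, adjusted p = 0.162). Smc4 was at 14.31, 14.36 and 14.36 in DN2 and at 14.29, 14.24 and 13.68 in DN3, a difference of -0.27 (SE 0.20, adjusted p = 0.394). Other probe sets of these 2 genes read differently. For Smc2, dimmer probe sets fell by 3.87, 2.73 and 2.12 on the log2 scale (adjusted p = 2.67e-05, 0.000114 and 0.00222), and for Smc4 another probe set fell by 1.29 on the log2 scale (adjusted p = 0.0045). With every probe set tested by itself and a gene counted where 1 passed and none opposed it, 34 of 34 fell. Of the other probe sets of the 32 genes that fell, 24 of 39 fell too, 0 rose and 15 did not pass.

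**Figure D2:**
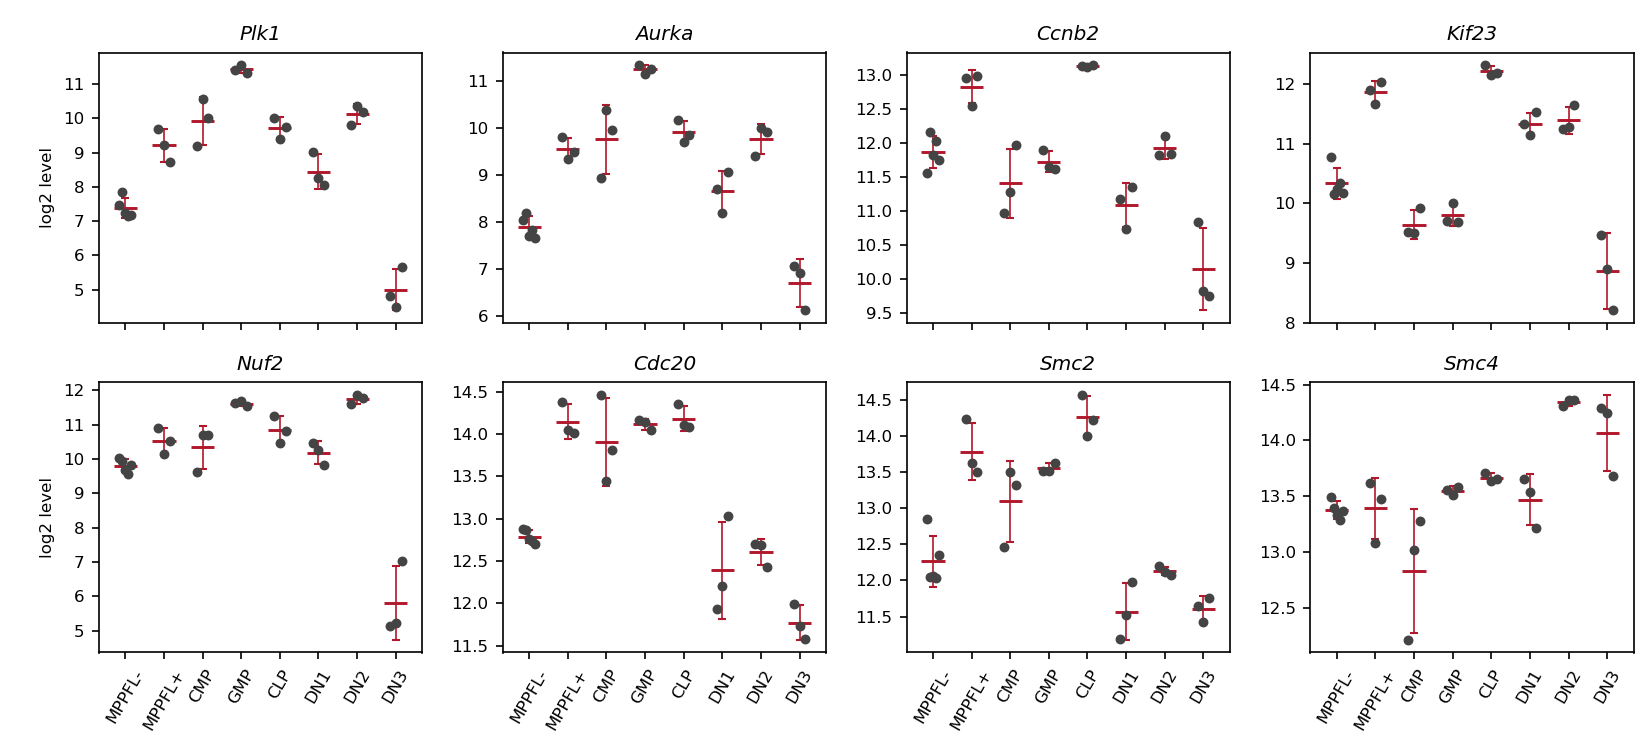
Log2 level on every array (points) of 8 genes in the 8 populations, with the mean (red line) and SD (red bar); the vertical axes differ between genes and do not start at 0. Plk1 and Aurka peak in GMP, Kif23 and Ccnb2 are lower in CMP and GMP than in MPPFL+ and CLP, and Smc4 stays at 13.68 to 14.29 in DN3.

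The DN3 result was 31 of 34 with the spike-in cluster as a random block, and it was 32 in each of the 26 fits that left out 1 array. Leaving out the arrays that went against the male label leaves 1 array of DN2, replicate 1. That array was above every DN3 array in all 34 genes, as the other DN2 arrays were. DN2 and DN3 share no spike-in cluster. The 18S ribosomal control signal was 7.77 to 8.21 on the DN2 arrays and 12.86 to 13.16 on the DN3 arrays, and the summed level of 14 immediate early and stress genes was 138.1 to 174.7 in DN2 and 94.0 to 132.4 in DN3. The summed level of 8 later thymocyte markers was 33.8 to 38.9 in DN2 and 56.9 to 64.6 in DN3, with Cd4 at the lowest value on all DN3 arrays. The part of these measures in the result was not tested. On the DN3 arrays, replicate 2 gave the lowest level of 24 of the 34 genes and replicate 1 the highest of 19.

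DN3 was also compared with MPPFL-, the next lowest population after DN3 for 17 genes, a comparison chosen after the levels had been seen. In DN3 33 of 34 genes were lower and 1 was higher, with 17.1% of all genes lower and 14.7% higher and a median log2 difference of -2.44. Ttk fell by 19.9-fold (adjusted p = 6.3e-11), Nuf2 by 16.1-fold and Cdk1 by 12.1-fold. Smc4 was the gene that was higher, at 13.50, 13.40, 13.33, 13.28 and 13.37 in MPPFL- and above all of these on each DN3 array (difference 0.70, SE 0.18, adjusted p = 0.00482). With the spike-in cluster as a random block 32 were lower and 0 higher.

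Within the multipotent progenitors, cells labelled FL+ were set against those labelled FL-. Of the 34 genes, 27 rose in MPPFL+ and 0 fell, while 10.6% of all genes rose and 5.25% fell, and all 34 differences were above 0. The median log2 difference was 1.01, against 0.12 over genes above the median level. Groups did not overlap in 29 genes, all higher in MPPFL+, where 15.1% of all genes were higher and 7.91% lower without overlap. MPPFL- and MPPFL+ shared a spike-in cluster, and a fit to that cluster alone gave 29 that rose. The 3′ minus 5′ difference of the actin control probe sets, a sign of RNA quality, was 3.12 to 4.08 in MPPFL- and 2.55 to 2.92 in MPPFL+, without overlap. That of the Gapdh control probe sets overlapped, at 3.13 to 3.88 in MPPFL- and 2.80 to 3.23 in MPPFL+. With the 3′ to 5′ difference as a covariate 24 rose and 0 fell. All 4 passenger complex genes, all 4 spindle motors and factors and all 4 cytokinesis genes rose, as did 5 of 6 entry genes, 5 of 6 checkpoint genes, 3 of 5 condensation genes and 2 of 5 kinetochore genes.

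Kif20a, a kinesin that brings the passenger complex to the central spindle, showed the largest rise. It was at 8.89, 8.51, 8.12, 8.12 and 8.75 on the MPPFL- arrays and at 11.19, 10.50 and 11.20 on the MPPFL+ arrays, a rise of 5.59-fold (2.48 on the log2 scale, SE 0.30, adjusted p = 1.04e-05). Plk1 was at 7.48, 7.84, 7.23, 7.16 and 7.19 in MPPFL- and at 9.68, 9.22 and 8.72 in MPPFL+, a rise of 3.56-fold. Kif2c rose by 3.53-fold, Espl1 by 3.17-fold, Aurka by 3.16-fold and Kif11 by 3.14-fold. At the other end Cdk1 rose by 1.59-fold (adjusted p = 0.0325). Ccna2, Mad2l1, Ndc80, Nuf2, Cenpe, Ncapg and Smc4 did not pass, with log2 differences from 0.02 in Smc4 to 1.04 in Cenpe. Smc2 rose by 2.85-fold on the probe set used, from 12.03 to 12.85 in MPPFL- to 13.49 to 14.23 in MPPFL+. On 2 of its other probe sets it fell, by 5.16 and 4.74 on the log2 scale (adjusted p = 6.13e-07 and 2.58e-07). Probe sets not used for Ncapg, Cenpe and Smc4 were lower in MPPFL+ as well, by 3.97, 2.75 and 3.07 on the log2 scale, so the direction of these 4 genes in this comparison rests on the probe set. Of the other probe sets of genes that rose, 16 of 40 rose, 2 fell and 22 did not pass.

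On the myeloid side, CMP was set against MPPFL+. Here 11 of the 34 genes fell in CMP and 0 rose, while 18.7% of all genes fell and 5.39% rose, with a median log2 difference of -0.52 against -0.35 over genes above the median level. All 4 central spindle and cytokinesis genes fell. Kif23 was at 11.90, 11.66 and 12.03 in MPPFL+ and at 9.52, 9.50 and 9.92 in CMP, a fall of 4.65-fold (SE 0.23 on the log2 scale, adjusted p = 9.48e-07). Kif20a fell by 3.19-fold, Anln by 2.62-fold and Prc1 by 2.12-fold. The cyclin Ccnb2 was at 12.95, 12.54 and 12.97 in MPPFL+ and at 10.97, 11.28 and 11.97 in CMP, a fall of 2.67-fold. Ndc80, Ncapg, Kif4, Tpx2, Cdk1 and Mad2l1 made up the rest, with falls of 1.59-fold to 2.41-fold, although for Ncapg another probe set rose.

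This count moved with the processing. It was 3 with the spike-in cluster as a random block, 1 in a fit to the 6 arrays of both populations alone and 7 without MPPFL+ replicate 1. Centring each array on its median moved the median over all genes by 0.28, and 7 genes then fell and 2 rose. After quantile normalization 6 fell and 1 rose. The Gapdh 3′ minus 5′ difference was 1.87 to 2.54 in CMP and 2.80 to 3.23 in MPPFL+, without overlap, while that of actin overlapped. With the 3′ to 5′ difference as a covariate 1 gene no longer passed and 1 other did. In CMP, replicate 1 was the lowest of its group for Cdk1 (10.90, against 11.56 and 11.60), for Plk1 (9.18, against 10.55 and 10.02) and for Anln (9.25, against 10.49 and 10.52). It was the highest of its group for Kif2c (11.32, against 10.53 and 10.54) and Cdc20 (14.47, against 13.44 and 13.81).

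From CMP to GMP, 12 of the 34 genes rose and 0 fell, while 13.8% of all genes rose and 7.63% fell, with a median log2 difference of 0.43 against 0.17 over genes above the median level. Among them were 4 of 6 entry genes (Plk1, Aurka, Nek2 and Cdk1), 3 of 4 cytokinesis genes (Kif20a, Prc1 and Anln), and Aurkb, Nuf2, Kif11, Bub1 and Smc4. Plk1 was at 9.18, 10.55 and 10.02 in CMP and at 11.41, 11.56 and 11.32 in GMP, a rise of 2.86-fold (adjusted p = 0.00346). Aurka was at 8.94, 10.37 and 9.96 in CMP and at 11.34, 11.15 and 11.24 in GMP, a rise of 2.80-fold. Kif23 did not pass, at 9.70, 10.00 and 9.69 in GMP (difference 0.15, adjusted p = 0.825). The actin 3′ minus 5′ difference was 1.68 to 2.96 in CMP and 1.47 to 1.52 in GMP, without overlap. That of Gapdh overlapped, at 1.87 to 2.54 in CMP and 1.85 to 2.05 in GMP. With the 3′ to 5′ difference as a covariate 11 rose and 0 fell. The count was 5 with the spike-in cluster as a random block, 4 with the 6 arrays of both populations alone, 6 after quantile normalization and 7 without CMP replicate 1.

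GMP and MPPFL+ had nearly the same median, with a log2 difference of -0.02, which was 0.12 after centring. Of the 34 genes 5 were higher and 4 lower in GMP, while 12.7% of all genes were higher and 18.2% lower. The 34 thus differed about as often as all genes did. Plk1, Aurka and Aurkb were the kinases that passed, all higher in GMP, while Cdk1, Nek2, Bub1, Bub1b and Ttk did not pass. Plk1 rose by 4.66-fold, from 9.68, 9.22 and 8.72 in MPPFL+ (SE 0.35 on the log2 scale, adjusted p = 4.57e-05), and Aurka by 3.24-fold, from 9.81, 9.34 and 9.49 (adjusted p = 0.000227). Kif11 rose by 2.17-fold, Nuf2 by 2.14-fold and Aurkb by 1.86-fold. Kif23 fell by 4.18-fold (adjusted p = 8.17e-07), Ccnb2 by 2.14-fold, Ncapg by 1.79-fold and Espl1 by 1.73-fold, while another probe set of Ncapg rose. With the spike-in cluster as a random block 3 of the 9 passed. The actin 3′ minus 5′ difference was 1.47 to 1.52 in GMP and 2.55 to 2.92 in MPPFL+, without overlap. With the 3′ to 5′ difference as a covariate 3 of the 9 no longer passed.

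CLP, the lymphoid counterpart, was higher than GMP in 6 of the 34 genes and lower in 3, where 16.7% of all genes were higher and 11.6% lower. By this count too the 34 differed about as often as all genes did. These groups share the GMP arrays with the comparison above. Kif23 was at 12.32, 12.15 and 12.18 in CLP against 9.69 to 10.00 in GMP, 5.34-fold higher (SE 0.23 on the log2 scale, adjusted p = 1.12e-07). Cenpf was 2.67-fold higher in CLP, Ccnb2 2.64-fold, Ncapg 2.41-fold, Ndc80 2.00-fold and Espl1 1.87-fold, and again another probe set of Ncapg was lower. Plk1 was 3.25-fold lower in CLP, at 10.02, 9.41 and 9.76, Aurka 2.53-fold lower, at 10.17, 9.69 and 9.84, and Aurkb 1.68-fold lower, at 11.98, 11.81 and 11.68. The arrays of GMP and CLP did not overlap in any of these 9 genes. Without overlap, 21 of the 34 were higher in CLP and 5 lower, where 25.3% and 17.3% of all genes were. The count of 9 was 4 with the spike-in cluster as a random block and 20 with the 6 arrays of both populations alone. The actin 3′ minus 5′ difference was 2.51 to 2.84 in CLP and 1.47 to 1.52 in GMP, without overlap. With the 3′ to 5′ difference as a covariate 2 of the 9 genes no longer passed and 3 others did.

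CLP did not differ from MPPFL+ in any of the 34 genes by limma (0 of 34), where 6.54% of all genes differed (2.53% higher and 4.01% lower). At an unadjusted p under 0.05, 3 were higher and 0 lower, and with every probe set tested by itself 1 was higher. All 34 differences were above 0, with a median of 0.32, and the arrays did not overlap in 5, all higher in CLP, where 8.32% of all genes were higher and 9.53% lower without overlap. The 95% intervals of the 34 differences ran from -0.69 to 1.61 on the log2 scale. Both populations lay in the same spike-in cluster.

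**Figure D3:**
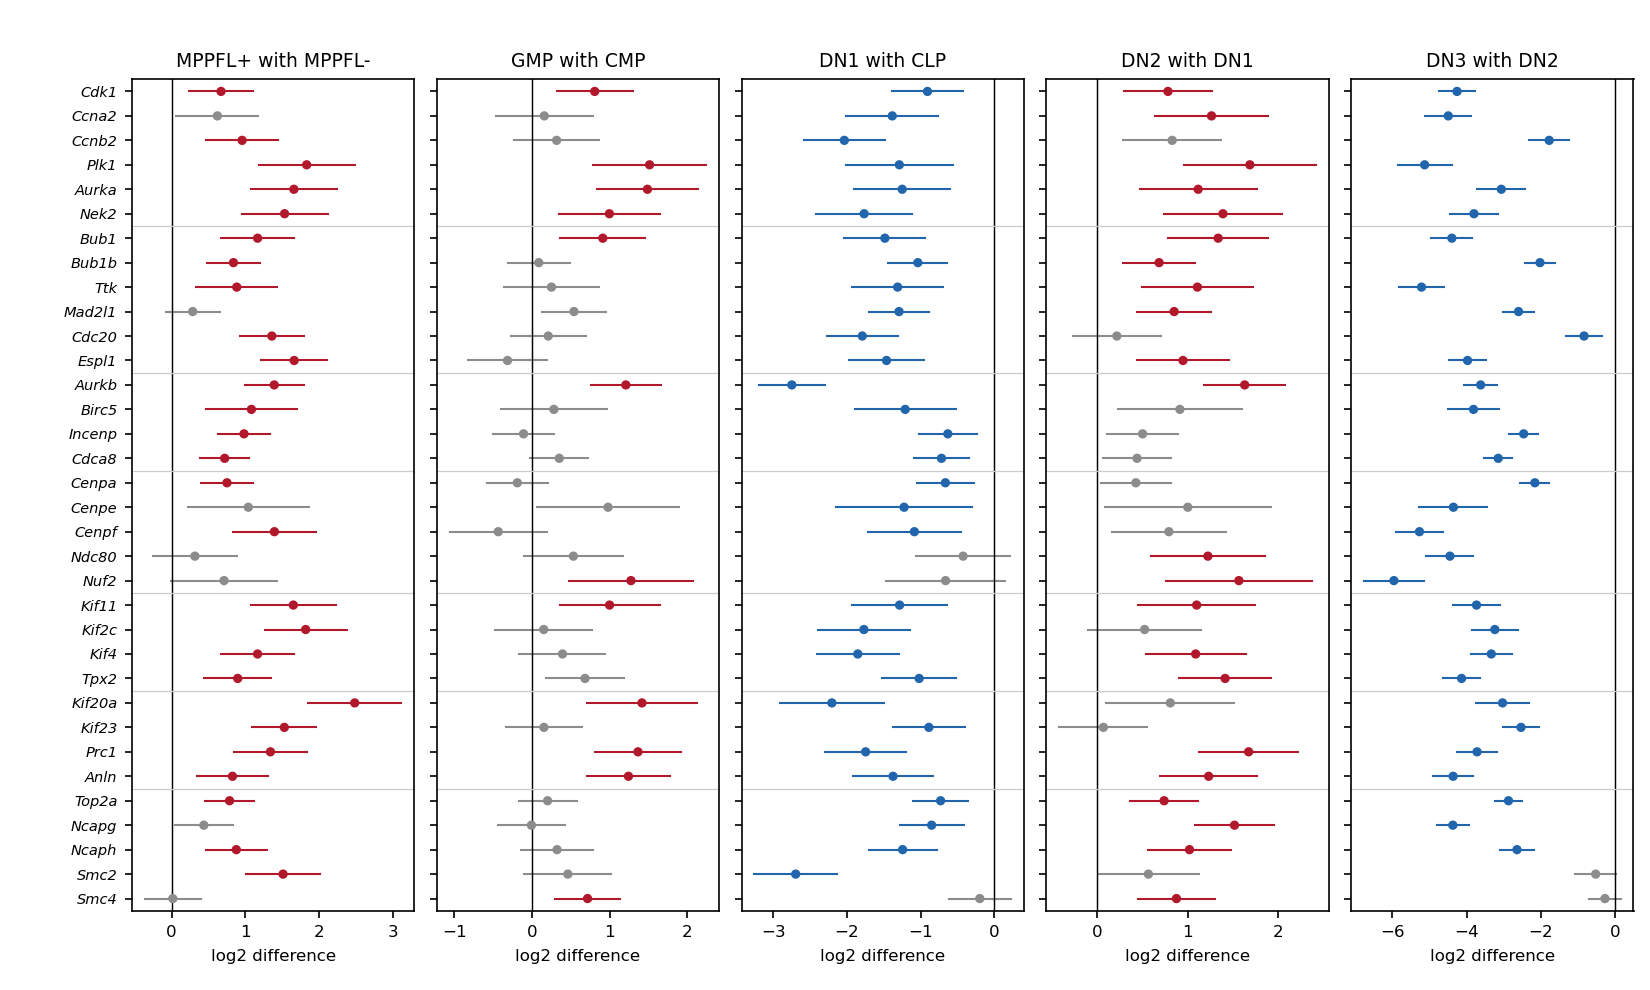
Log2 difference (points) with its 95% interval (lines) for each of the 34 genes in 5 comparisons, the first population minus the second; red marks genes that rose, blue those that fell and grey those that did not pass, and the horizontal axes differ. The counts are 27 higher, 12 higher, 31 lower, 22 higher and 32 lower.

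Entry into the thymus was followed by setting DN1 against CLP. Of the 34 genes 31 fell in DN1 and 0 rose, while 18.8% of all genes fell and 8.03% rose, with a median log2 difference of -1.27 against -0.29 over genes above the median level. Every gene of the entry, checkpoint, passenger, motor and cytokinesis groups fell. Aurkb was at 11.98, 11.81 and 11.68 in CLP and at 9.36, 8.91 and 8.96 in DN1, a fall of 6.71-fold (SE 0.21 on the log2 scale, adjusted p = 1.99e-08). Smc2 fell by 6.47-fold on the probe set used, Kif20a by 4.60-fold, Ccnb2 by 4.10-fold and Kif4 by 3.61-fold. Cdc20 was at 14.35, 14.11 and 14.09 in CLP and at 11.94, 12.20 and 13.03 in DN1, a fall of 3.46-fold. Ndc80, Nuf2 and Smc4 did not pass. The arrays did not overlap in 32 genes, all lower in DN1, where 23.3% of all genes were lower and 10.4% higher without overlap.

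Probe sets disagreed for several genes. Of the other probe sets of the 31 genes, 16 of 43 fell, 6 rose and 21 did not pass. Those that rose belonged to Smc2 (6.47 and 2.34 on the log2 scale), Cenpe (3.58), Ncapg (3.42), Incenp (1.72) and Kif11 (1.58). With the spike-in cluster as a random block 15 of the 34 fell, and without the arrays against the male label 24 fell, which leaves 1 array of DN1 that is assumed to vary like the other populations. The 18S ribosomal control signal was 8.57 to 10.32 in DN1 and 12.24 to 12.44 in CLP. The summed level of the immediate early and stress genes was 154.9 to 183.3 in DN1 and 132.0 to 137.9 in CLP. Their part in the result was not tested.

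From DN1 to DN2, 22 of the 34 genes rose and 0 fell, while 3.99% of all genes rose, 4.12% fell and thus 8.11% changed. All 34 differences were above 0, with a median of 0.97 against 0.04 over genes above the median level. Groups did not overlap in 29 genes, all higher in DN2, where 8.98% of all genes were higher and 8.02% lower without overlap. By role, 5 of 6 entry genes, 5 of 6 checkpoint genes, 4 of 5 condensation genes, 3 of 4 motors and factors, 2 of 4 cytokinesis genes, 2 of 5 kinetochore genes and 1 of 4 passenger genes rose. Plk1 was at 9.02, 8.26 and 8.04 in DN1 and at 9.82, 10.37 and 10.19 in DN2, a rise of 3.21-fold (SE 0.35 on the log2 scale, adjusted p = 0.00371). Prc1 was at 9.50, 9.83 and 8.88 in DN1 and at 11.08, 11.06 and 11.08 in DN2, a rise of 3.18-fold. Aurkb rose by 3.09-fold (adjusted p = 3.87e-05), Nuf2 by 2.95-fold and Ncapg by 2.86-fold. Kif23, at 11.32, 11.14 and 11.52 in DN1 and 11.25, 11.28 and 11.65 in DN2, did not pass (difference 0.07, adjusted p = 1), nor did Cdc20 (difference 0.21).

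The number that rose in DN2 depended on single arrays. It was 12 without DN1 replicate 3, 12 without DN2 replicate 2 and 14 without DN2 replicate 3. Without all 4 arrays against the male label, which leaves 1 array in each population that is assumed to vary like the others, 2 rose and the median difference was 0.91. With the 6 arrays of both populations alone, which form 1 spike-in cluster, 4 rose, namely Aurkb, Kif11, Tpx2 and Top2a. The stress genes had a summed level of 154.9 to 183.3 in DN1 and 138.1 to 174.7 in DN2, and their part was not tested.

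Other genes of mitosis, 111 measured in 6 lists that hold none of the 34, were counted in the same fit. In DN3 against DN2, 76 fell and 7 rose, with a median log2 difference of -1.68. Kinetochore genes outside the 34 fell in 26 of 30 cases and rose in 1, Mad1l1. Mad1l1 was dim, with a mean of 2.26 in DN2 and 3.47 in DN3, where the lowest value of the table was 2.17. Ska1, which keeps kinetochores on microtubule ends, fell with a log2 difference of -4.96 (SE 0.23, adjusted p = 2.81e-12). Other spindle and cytokinesis genes fell in 20 of 24 cases and rose in 2, among them Hmmr, a spindle-binding protein, which fell by 5.95, and the risers were Numa1, a spindle pole protein, which rose by 1.27, and Cntrob, a centriole protein. Genes of mitotic entry control fell in 16 of 22 cases and rose in 2, Lin37 and Ensa. Cdc25c, the phosphatase that activates Cdk1, fell by 5.51 on the log2 scale and Mastl, the Greatwall kinase, fell by 5.31. Lin37, a subunit of the DREAM complex, which represses cell cycle genes through the CHR, rose by 2.64 (SE 0.14, adjusted p = 3.34e-11), from 6.30 ± 0.32 in DN2 to 8.93 ± 0.20 in DN3 (SD, n = 3). Its level was 8.78 ± 0.12 in MPPFL+ and 8.79 ± 0.03 in CLP. Lin9, Lin52 and Lin54, other subunits in the same list, did not rise in DN3. Any part of Lin37 in the falls was not tested.

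Genes that also work outside mitosis were split. Of 15 cohesin and separation genes 6 fell and 1 rose, with a median of -0.45. Sgo1 and Sgo2a, the shugoshins that guard centromeric cohesin, fell by 4.24 and 3.52 on the log2 scale, and Wapl, which releases cohesin, rose by 0.61. Of 16 anaphase-promoting complex genes 5 fell and 1 rose, Anapc11, with a median of -0.14, and the mitotic ubiquitin-conjugating enzyme Ube2c fell by 5.05. Of 4 other condensin genes 3 fell. Of the 33 DNA replication genes 28 fell and 0 rose, with a median of -1.13, where the 34 mitosis and spindle genes had a median of -3.67. Mcm10, which helps to start replication forks, fell by 3.15 and Mcm2, a subunit of the replicative helicase, did not pass (difference 0.13). The difference between the lists was not tested.

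**Figure D4:**
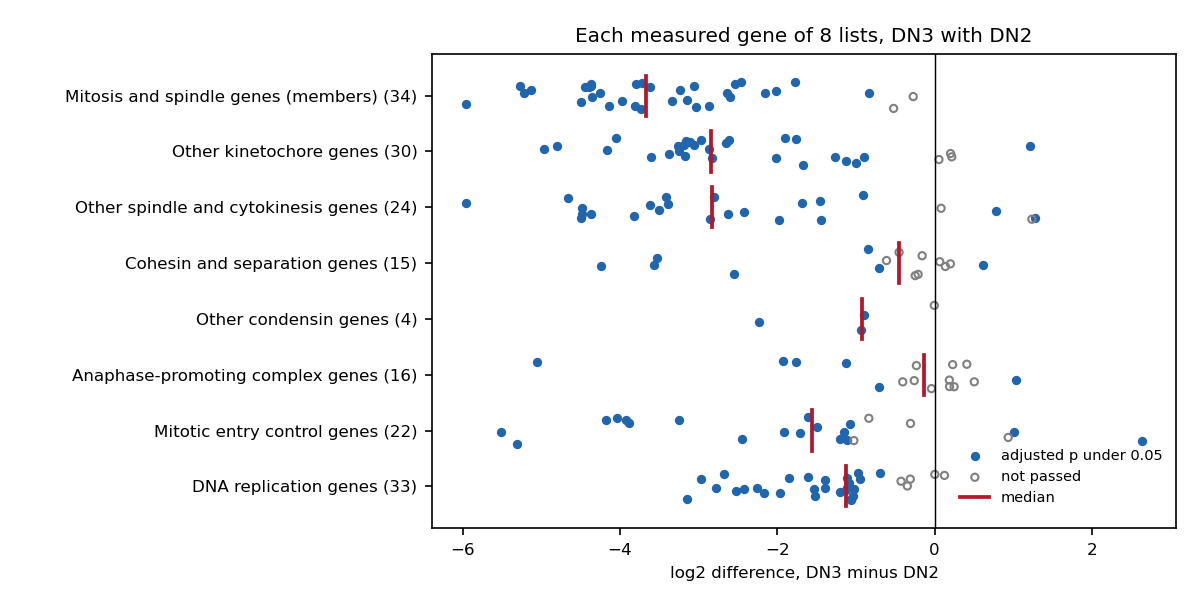
Log2 difference between DN3 and DN2 for each measured gene of 8 lists (points, spread vertically only to be seen), filled where the adjusted p was under 0.05 and open where not, with the list's median as a red line. The medians are -3.67 for the 34 mitosis and spindle genes, -2.85 and -2.83 for other kinetochore and spindle genes, and between -1.55 and -0.14 for the rest.

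Of these 111 genes 48 were higher and 6 lower in MPPFL+ against MPPFL-, where 10.6% and 5.25% of all genes were. In CMP against MPPFL+ 6 were higher and 48 lower (5.39% and 18.7% of all genes), and in GMP against CMP 35 and 4 (13.8% and 7.63%). In GMP against MPPFL+ 18 were higher and 18 lower (12.7% and 18.2%), in CLP against MPPFL+ 1 and 0 (2.53% and 4.01%), and in CLP against GMP 29 and 10 (16.7% and 11.6%). In DN1 against CLP 5 were higher and 69 lower (8.03% and 18.8%), in DN2 against DN1 53 and 0 (3.99% and 4.12%), and in DN3 against MPPFL- 8 and 66 (14.7% and 17.1%). These comparisons share arrays with each other. In MPPFL+ against MPPFL-, Ube2s and Ube2c, which build and extend ubiquitin chains for the anaphase-promoting complex, rose by 2.77 and 2.17, and Foxm1, a transcription factor of mitotic genes, rose by 1.79. In the same comparison 8 of the 33 replication genes rose and 2 fell, with a median of 0.19, beside 10.6% and 5.25% of all genes. In DN2 against DN1, 14 replication genes rose and 0 fell, beside 3.99% and 4.12% of all genes, and Rrm2, a subunit of the reductase that supplies deoxynucleotides, rose by 1.43.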

How the data were processed

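The deposited table holds 1 log2 value for each of 45101 probe sets on each of 26 arrays, as the authors made it. Their normalization and summarisation are not given in the sources used here. By the platform annotation, 1 gene was named for 34958 probe sets, several for 932 and none for 9211. Names were checked through 34754 gene IDs found in a RefSeq gene table. Groups follow the population in each title. Values were used as deposited, with 1 probe set per gene, the highest by mean. All 26 arrays entered 1 fit of limma 3.58.1 (R 4.3.3; lmFit, eBayes), in which population was the sole factor and 18 residual degrees of freedom remained, with Benjamini-Hochberg adjustment over 18194 genes within each comparison. A gene rose, fell or passed at an adjusted p under 0.05. The fit was tested on simulated data. Intervals are 95%. The number of arrays limits precision. The genes, lists and comparisons were chosen with earlier results of these data known, and DN3 with MPPFL- was added after the levels of these genes were seen. All 34 genes are named. Of the other lists, the 3 largest changes that passed were taken per list, direction and comparison. Some of these genes were named and others, with larger changes among them, were not. Anapc11, Cntrob, Ensa, Lin37, Mad1l1, Mcm2, Numa1 and Wapl were named after their values were seen. Alternatives were other scalings, probe set rules, a dim-gene filter, variance models, subsets of arrays, and blocks for spike-in cluster or replicate number. Of the probe sets used, 5 end in x_at (Cdc20, Aurkb, Incenp, Kif2c and Ncaph) and 3 in s_at (Nek2, Bub1b and Cdca8), which by the maker's naming can also match related transcripts.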

Additional observations from a re-analysis of the deposited data

Results flagged for a closer look

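Among the 5 MPPFL- arrays, the only population large enough for the check, 1 array stood apart from the other 4 in 2 of the 34 genes. Ccna2 was at 11.73 on replicate 2 and at 11.34 to 11.44 on the others, and Top2a was at 13.03 on replicate 2 and at 12.71 to 12.77 on the others. The gap to the nearest array was 0.751 and 0.818 of the whole range, above Dixon's limit for 5 samples. Chance gives such a gap in about 1 in 20 groups.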

How the results depend on the processing

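The 32 of 34 genes that fell in DN3 against DN2 ranged from 31 to 34 over all alternatives, and all 34 differed among populations in each fit. Leaving out 1 array at a time gave 23 to 30 genes for MPPFL+ with MPPFL-, 7 to 15 for CMP with MPPFL+, 7 to 14 for GMP with CMP, 6 to 11 for GMP with MPPFL+, 0 for CLP with MPPFL+, 8 to 11 for CLP with GMP, 28 to 31 for DN1 with CLP, 12 to 24 for DN2 with DN1, 32 for DN3 with DN2 and 33 to 34 for DN3 with MPPFL-. With the spike-in cluster as a random block (correlation 0.427, chosen with the files at hand) the counts were 3 for CMP with MPPFL+, 5 for GMP with CMP, 3 for GMP with MPPFL+, 4 for CLP with GMP and 15 for DN1 with CLP. With only the arrays of the 2 populations they were 1 for CMP with MPPFL+, 4 for GMP with CMP, 20 for CLP with GMP and 4 for DN2 with DN1, and with 1 spike-in cluster 4 for DN2 with DN1. Quantile normalization gave 7 for CMP with MPPFL+ and 6 for GMP with CMP. Centring each array moved the median difference over all genes by 0.28 in CMP with MPPFL+, -0.14 in GMP with CMP, 0.14 in GMP with MPPFL+, -0.12 in CLP with GMP and 0.19 in DN1 with CLP, and the medians of the 34 genes were then -0.24, 0.29, 0.12, 0.21 and -1.08. Testing every probe set gave 1 for CLP with MPPFL+, and leaving out the arrays against the male label gave 2 for DN2 with DN1.

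Same-numbered arrays did not deviate together on average (mean correlation -0.016, and 0.007 for different numbers). Single pairs of the same number ran from -0.479 to 0.484. A mean over all populations cannot show whether some of them share animals or days. With the replicate number as a block the counts were 23, 9, 11, 8, 0, 9, 30, 18, 32 and 33 in the order above.

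A value is counted as reversed where its sign changed and it passed in the reported fit or under the alternative. This held for 40 values, all under another choice of probe set. The sign also changed in 156 cases in which neither value passed, 65 of them on leaving out 1 array, 24 on averaging probe sets, 20 with the most variable probe set, 19 after centring and 15 after quantile normalization. Averaging the probe sets of a gene gave, in MPPFL+ with MPPFL-, -1.77 in Ncapg, -1.65 in Smc2 and -1.47 in Smc4. It gave -0.63 in Bub1b, 0.75 in Ncapg and 1.20 in Smc2 in CMP with MPPFL+, and 1.48 in Cenpe, 0.55 in Kif2c, 1.32 in Ncapg and 1.70 in Smc2 in GMP with MPPFL+. It gave -0.60 in Ncapg and -1.20 in Smc2 in CLP with GMP, and 1.18 in Cenpe, 1.29 in Ncapg, 1.30 in Smc2 and 1.55 in Smc4 in DN1 with CLP. Taking the probe set with the largest variance gave, in MPPFL+ with MPPFL-, -2.75 in Cenpe, -0.66 in Top2a, -3.97 in Ncapg, -5.16 in Smc2 and -3.07 in Smc4. In CMP with MPPFL+ it gave -1.27 in Bub1b, 2.20 in Cenpe, 2.33 in Ncapg and 4.10 in Smc2. In GMP with MPPFL+ it gave 3.03 in Cenpe, 1.71 in Kif2c, 3.49 in Ncapg and 5.79 in Smc2. In CLP with GMP it gave -2.17 in Cenpe, -2.48 in Ncapg, -5.25 in Smc2 and -1.58 in Smc4. In DN1 with CLP it gave 1.72 in Incenp, 0.82 in Cenpa, 3.58 in Cenpe, 0.20 in Top2a, 3.42 in Ncapg, 6.47 in Smc2 and 3.32 in Smc4. The cause was not tested.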
